A study of Mus musculus with 12 samples.

Results

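The genes described here are 40 interferon-stimulated genes of the mouse lung. They were chosen by symbol as known targets of type I interferon, together with GTPases and antigen processing genes that interferon gamma induces. The rule itself uses no measured value, but the members were chosen with earlier results of these data known. All 40 were found among the 59136 entries of the deposited count table. They comprise 21 antiviral effectors, 4 sensors of foreign nucleic acid, 4 transcription factors, 8 interferon-inducible GTPases and 3 genes of antigen processing. RNA sequencing was done on 6 lung samples labelled Mut and 6 labelled WT, all at day 28 and with no other treatment named. The series' design text gives the Mut genotype as IARS1 Tyr148Cys/Arg444*, which are changes in isoleucyl-tRNA synthetase 1, needed to charge transfer RNA with isoleucine during protein synthesis. The genotype label of the same samples reads IARS1 knockdown, and the WT samples carry no named change. The labels give neither strain nor age beyond the day, call the material both lung and primary cells, and do not say whether each sample came from its own mouse. The p-values below therefore measure the spread between samples, which may in part be technical.

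Type I interferons bind a receptor on almost every cell type and activate a transcription factor complex that includes STAT2 and IRF9. The complex binds the interferon-stimulated response element in front of genes that block virus replication. Interferon gamma, made mainly by T cells and natural killer cells, acts through the gamma-activated site. It is best known for inducing GTPases that attack pathogen-containing vacuoles and the machinery that presents peptides on MHC class I. In the lung, epithelial cells, endothelium, macrophages and lymphocytes can all respond to interferon.

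Promoter stretches are shown for the motifs through which interferons act, although the 40 genes were chosen by symbol and not by motif. They include those of the members with the smallest change (Isg15), the lowest log2 fold change (Rsad2) and the most positive (Ifit1). RefSeq promoter windows (build GRCm38.p6) were available for 30 of the 40 genes. The core of the interferon-stimulated response element was searched as GAAA, any 2 bases and GAAA, and the gamma-activated site as TTC, any 3 bases and GAA, on both strands of the 250 bases before the transcription start. The first was in 15 of the 30 windows, against 3.46% of 27025 genes with such a window. The second was in 8 of the 30, against 8.13% of all. In the following 60-base stretches, written 5′ to 3′ on the strand of the gene, capitals mark either motif, and overlapping matches run together. The stretches lie at chr4:156200856-156200915 (Isg15, minus strand), chr19:34640769-34640828 (Ifit1, plus), chr19:34583365-34583424 (Ifit3, plus) and chr12:26456538-26456597 (Rsad2, minus). Those of Bst2 (minus), Igtp (plus), Gbp7 (plus) and Irf1 (plus) lie at chr8:71537568-71537627, chr11:58199491-58199550, chr3:142530241-142530300 and chr11:53769898-53769957.
Isg15: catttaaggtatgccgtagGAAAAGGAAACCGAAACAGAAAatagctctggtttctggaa
Ifit1: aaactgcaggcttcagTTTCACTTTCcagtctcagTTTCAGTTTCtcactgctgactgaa
Ifit3: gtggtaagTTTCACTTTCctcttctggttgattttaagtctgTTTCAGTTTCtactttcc
Rsad2: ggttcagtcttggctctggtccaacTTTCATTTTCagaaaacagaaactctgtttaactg
Bst2: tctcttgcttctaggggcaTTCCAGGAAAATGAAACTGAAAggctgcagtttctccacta
Igtp: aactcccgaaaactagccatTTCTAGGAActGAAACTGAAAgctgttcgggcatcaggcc
Gbp7: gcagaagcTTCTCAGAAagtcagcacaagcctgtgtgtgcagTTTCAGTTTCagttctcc
Irf1: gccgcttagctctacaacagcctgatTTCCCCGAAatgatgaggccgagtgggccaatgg
Isg15 held 3 overlapping copies of the response-element core, and Ifit1 and Ifit3 held 2 separate copies each. The stretch of Ifit3 recurred base for base in front of its neighbour Ifit3b at chr19:34607761-34607820. In Bst2 a gamma-activated site overlapped 1 of 2 response-element cores, which overlapped each other. Igtp and Gbp7 held 1 match of each kind, and Irf1 held a gamma-activated site alone. By group, the response-element core was found for 8 effectors, 6 GTPases and the transcription factor Stat2. No match of it was found in the windows of the 3 antigen processing genes. These matches describe letters in a window and say nothing of binding.

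The interferon-stimulated genes were, as a group, expressed at similar average levels in Mut and WT lungs. All 40 passed the low-count filter, and the edgeR quasi-likelihood test called 2 of them at a Benjamini-Hochberg adjusted p under 0.05, both lower in Mut: Rsad2 and Psmb8. That is 5% of the list, against 5.31% of the 19004 tested genes called lower and 9.89% called in either direction. None was called higher, against 4.57% of tested genes. At an unadjusted p under 0.05, 3 members were lower (Rsad2, Psmb8 and Psmb9) and 0 higher, where 13.2% and 14.4% of all tested genes passed. The log2 fold change of Mut over WT was positive for 24 members and negative for 16. Its median was 0.02, beside 0.01 over all tested genes, and it ran from -1.07 for Rsad2 to 0.48 for Ifit1. Mut and WT libraries overlapped for every one of the 40 genes, while 4.58% of tested genes were without overlap, 2.39% with all Mut libraries below and 2.18% with all above. For 34 members the 95% confidence interval of the log2 fold change lay between -1 and 1, that is, within a 2-fold change. It passed those bounds for Ifit1, Rsad2, Gbp4, Igtp, Iigp1 and Psmb9.

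**Figure D1:**
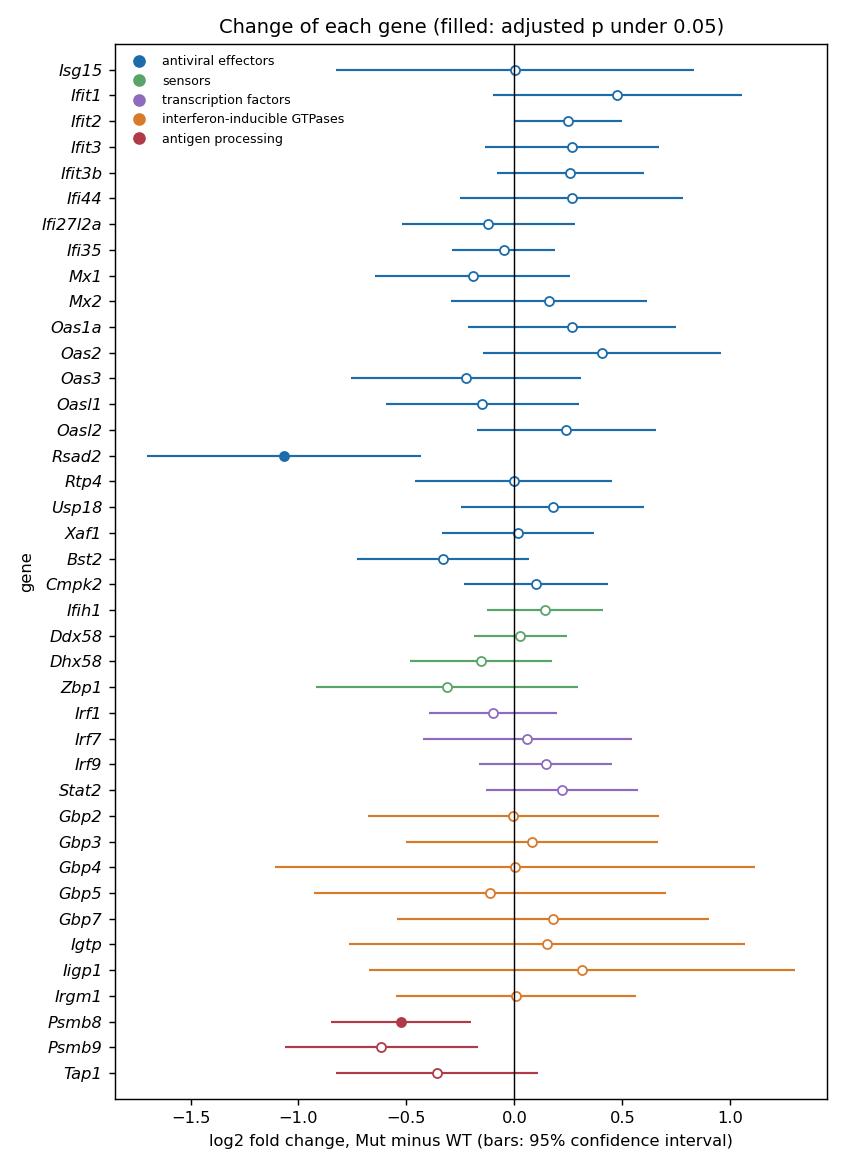
Log2 fold change of Mut over WT for each of the 40 genes, coloured by group, with 95% confidence intervals from the edgeR fit. Filled points are the 2 genes with an adjusted p under 0.05, Rsad2 and Psmb8, and most other points sit near 0.

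Rsad2 had the lowest fold change of the 40. It encodes viperin, an enzyme that makes a chain-terminating nucleotide and blocks the replication of many viruses. Rsad2 (chr12:26442746-26456452, ENSMUSG00000020641) had 8.32, 10.2, 7.68, 19.99, 5.52 and 13.5 CPM (counts scaled to library size, with TMM factors from edgeR) in Mut replicates 1, 2, 3, 4, 5 and 7. In WT replicates 1, 3, 4, 5, 6 and 7 it had 13.1, 25.4, 38.6, 22.6, 18.4 and 18.4 CPM. Of the Mut libraries, 4 lay below the lowest WT library, and Mut replicate 4 lay among the WT values. The means were 10.9 ± 5.21 CPM in Mut and 22.8 ± 8.84 CPM in WT (SD, n = 6 each), a log2 fold change of -1.07 (SE 0.30, adjusted p = 0.0364, edgeR quasi-likelihood test). The call was lost when any of Mut replicates 1, 2, 3 or 5 or WT replicates 3, 4 or 5 was left out, with edgeR adjusted p up to 0.0862. The adjoining gene Cmpk2, a mitochondrial nucleotide kinase that is induced together with Rsad2, averaged 37.4 ± 11.3 CPM in Mut and 34.9 ± 2.21 CPM in WT (SD, n = 6 each) and was not called. Its log2 fold change was 0.10 (edgeR adjusted p = 0.716).

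The other 20 antiviral effectors were not called in either direction, and the median log2 fold change of all 21 was 0.10. Ifit1, whose protein binds viral RNA that lacks a methylated cap, had the most positive change among the 40. Its Mut values were 26.4, 57.6, 43.9, 70.6, 22.5 and 85.5 CPM in replicates 1, 2, 3, 4, 5 and 7. Its WT values ran only between 31.7 and 39.95 CPM, with a median of 38.1. Thus 4 Mut libraries lay above all WT libraries and 2 below all of them. The means were 51.1 ± 24.8 CPM in Mut and 36.7 ± 3.35 CPM in WT (SD, n = 6 each; log2 fold change 0.48, SE 0.27, edgeR adjusted p = 0.264). Of the related Ifit genes, Ifit2 had a log2 fold change of 0.25 (edgeR adjusted p = 0.186), Ifit3 of 0.27 (0.376) and Ifit3b of 0.26 (0.306). Ifit3 and Ifit3b share 41.1% and 35.7% of their 75-base sequences with other genes, mostly with each other, so that their reads could not be fully told apart.

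Isg15, a ubiquitin-like protein that is joined to other proteins after interferon, showed no difference in mean and a wide range. It had 5.20 to 30.6 CPM in Mut, with a median of 15.2, and 9.95 to 27.9 CPM in WT, with a median of 13.8. Its means were 15.5 ± 9.42 CPM in Mut and 15.5 ± 6.29 CPM in WT (SD, n = 6 each), and the sign of its fold change turned negative in 11 of 12 other ways of scaling, filtering or fitting. Usp18, the protease that removes ISG15, had a log2 fold change of 0.18. Bst2, or tetherin, which holds budding virus at the cell surface, was the most abundant member per length, with 90.6 ± 24.9 FPKM (fragments scaled by transcript length and library total) in Mut and 119 ± 27.9 FPKM in WT (SD, n = 6 each). Its log2 fold change was -0.33 (edgeR adjusted p = 0.264). Ifi27l2a came next per length, at 66.5 ± 19.0 FPKM in Mut and 75.5 ± 18.2 FPKM in WT (SD, n = 6 each), and its log2 fold change was -0.12.

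Genes of the oligoadenylate synthetase family, which make the messenger that activates RNase L or have lost that activity, did not move together. Log2 fold changes were 0.27 for Oas1a, 0.41 for Oas2, -0.22 for Oas3, -0.15 for Oasl1 and 0.24 for Oasl2, and none was called. Oas1a shares 47.6% of its 75-base sequences with other genes, chiefly its close relative Oas1g. Oas3 was the member with the lowest level per length, at 0.674 ± 0.272 FPKM in Mut and 0.824 ± 0.244 FPKM in WT (SD, n = 6 each). The dynamin-like antiviral GTPases Mx1 and Mx2 had log2 fold changes of -0.19 and 0.16, and both stayed below 12 CPM in all libraries; Mx2 is annotated as a polymorphic pseudogene. Ifi44, Ifi35, Rtp4 and Xaf1, interferon targets with less defined roles, had log2 fold changes of 0.27, -0.05, 0.00 and 0.01.

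The 4 sensors were not called. Ifih1 and Ddx58, which encode the RNA helicases MDA5 and RIG-I that detect viral RNA in the cytosol, had log2 fold changes of 0.14 and 0.03. Ddx58 was also the member whose Mut libraries differed least, with 68.4 to 98.6 CPM in Mut (median 82.1) and 71.9 to 92.3 CPM in WT (median 79.3). Dhx58, the related helicase LGP2, had a log2 fold change of -0.15. Zbp1, a sensor of left-handed nucleic acid that starts necroptosis, had 5.52 to 23.5 CPM in Mut (median 9.79) and 12.2 to 18.9 CPM in WT (median 16.2). Of its Mut libraries, replicates 4 and 7 were high and the other 4 lay below every WT library. Its log2 fold change was -0.31 (edgeR adjusted p = 0.499).

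The transcription factors that carry the response were level on average. Stat2 and Irf9, parts of the complex that type I interferon activates, had log2 fold changes of 0.22 (edgeR adjusted p = 0.408) and 0.15 (0.542). Irf7, the factor that amplifies interferon production, and Irf1, an early target of interferon gamma, had log2 fold changes of 0.06 and -0.10. Irf9 had 76.7, 135, 97.7, 147, 74.95 and 119 CPM in Mut replicates 1, 2, 3, 4, 5 and 7, while its 6 WT libraries stood within 94.5 to 102 CPM (median 98.6). The Mut libraries of Irf9 lay on both sides of the narrow WT range.

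None of the 8 interferon-inducible GTPases was called, and their median log2 fold change was 0.04. Guanylate-binding proteins coat bacteria and parasite vacuoles, and the immunity-related GTPases Igtp, Iigp1 and Irgm1 destroy or guard such membranes. Gbp4 (chr5:105115767-105139586) had the widest range of all members. It had 58.1, 113, 85.5, 339, 33.5 and 189 CPM in Mut replicates 1, 2, 3, 4, 5 and 7. In WT replicates 1, 3, 4, 5, 6 and 7 it had 95.9, 107, 74.8, 104, 253 and 182 CPM. Its means were 136 ± 113 CPM in Mut and 136 ± 68.1 CPM in WT (SD, n = 6 each; log2 fold change 0.00, SE 0.51, 95% confidence interval -1.11 to 1.11). Iigp1 averaged 132 ± 94.7 CPM in Mut and 107 ± 48.9 CPM in WT, with the most positive log2 fold change of the group at 0.31 (SE 0.45, edgeR adjusted p = 0.688). Gbp2, Gbp3, Gbp5, Gbp7, Igtp and Irgm1 had log2 fold changes of 0.00, 0.08, -0.11, 0.18, 0.15 and 0.01. In all 8 GTPases the highest Mut library was replicate 4, with replicate 7 next, and the highest WT library was replicate 6, with replicate 7 next.

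The 3 antigen processing genes were the group with the lowest median, at -0.53 on the log2 scale. Psmb8, a catalytic subunit of the immunoproteasome that cuts peptides for MHC class I, fell in Mut. It had 34.3, 38.9, 40.5, 46.9, 22.9 and 48.1 CPM in Mut replicates 1, 2, 3, 4, 5 and 7. In WT replicates 1, 3, 4, 5, 6 and 7 it had 51.8, 49.1, 64.0, 55.8, 66.8 and 45.9 CPM. Only Mut replicates 4 and 7 reached the WT range. The means were 38.6 ± 9.25 CPM in Mut and 55.6 ± 8.32 CPM in WT (SD, n = 6 each), a log2 fold change of -0.53 (SE 0.15, edgeR quasi-likelihood adjusted p = 0.0404). The call was lost without any of Mut replicates 1, 2 or 5 or WT replicates 3, 4, 5 or 6, with edgeR adjusted p up to 0.0910.

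Psmb9, its partner subunit, averaged 30.1 ± 11.2 CPM in Mut and 46.2 ± 8.70 CPM in WT (SD, n = 6 each). Its log2 fold change of -0.62 was larger than that of Psmb8 but did not pass the threshold (SE 0.21, edgeR adjusted p = 0.0734), and it passed without Mut replicate 4 (0.0256) or Mut replicate 7 (0.0419). It also passed in 5 of 12 alternative fits, with adjusted p down to 0.0125 in limma-voom with sample quality weights. Tap1, a chain of the peptide transporter into the endoplasmic reticulum, had 59.7, 81.0, 66.3, 141, 43.8 and 93.4 CPM in Mut replicates 1, 2, 3, 4, 5 and 7. In WT it had 90.3 to 141 CPM, with a median of 96.3. The log2 fold change of Tap1 was -0.36 (edgeR adjusted p = 0.302), and without Mut replicate 4 it was -0.60 (0.0393). These 3 genes adjoin each other on chromosome 17. Exons of Psmb9 and Tap1 overlap by 212 bases on opposite strands and 498 exon bases of Psmb8 overlap the antisense gene Gm20496. No source used here says whether reads were counted by strand, so reads from such overlaps could not be told apart.

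**Figure D2:**
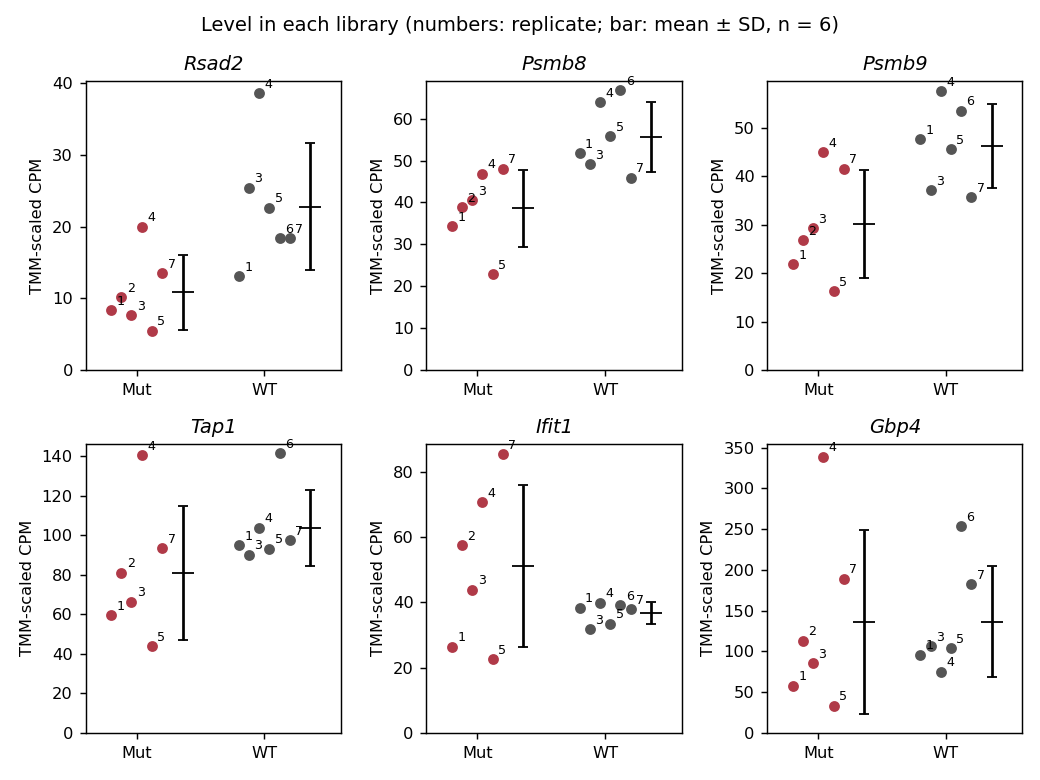
TMM-scaled CPM of 6 members in each library, with Mut left of WT, replicate numbers beside the points and mean ± SD (n = 6 each). In the panels of Rsad2 and Psmb8 most Mut points lie below the WT points, and in those of Ifit1 and Gbp4 the Mut points spread to both sides of the WT mean.

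For the 40 genes, the Mut libraries differed from each other by more than the WT libraries did. The standard deviation of log2(CPM + 0.5) was larger over the 6 Mut libraries than over the 6 WT libraries in 40 of 40 members, against 58.9% of all tested genes. The median standard deviation of the members was 0.54 in Mut and 0.23 in WT, while over all tested genes it was 0.23 in Mut and 0.20 in WT. Other lists also had the larger spread in Mut for most of their genes: 51 of 58 other type I targets, 14 of 19 other interferon gamma targets, 14 of 15 MHC class I genes, 9 of 10 lung tissue markers, 6 of 6 natural killer cell markers and 5 of 5 endothelial markers. Over all tested pathway genes it was 96 of 122, with 6 of 14 sensing and induction genes and 3 of 6 brakes, and for B cell markers it was 1 of 5. These counts are a description, since the genes come from the same libraries, and the larger spread was not tested as particular to the 40. With any 1 library left out, 38 to 40 of the 40 had the larger spread in Mut, 38 being without Mut replicate 5. The share over all tested genes then ran from 49.5% (without Mut replicate 7, with 39 of the 40) to 69.3% (without WT replicate 4). The highest Mut library exceeded the lowest by a median factor of 2.48 over the members, from 1.44 for Ddx58 to 10.1 for Gbp4. In WT the median factor was 1.604, from 1.07 for Irf9 to 3.39 for Gbp4.

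**Figure D3:**
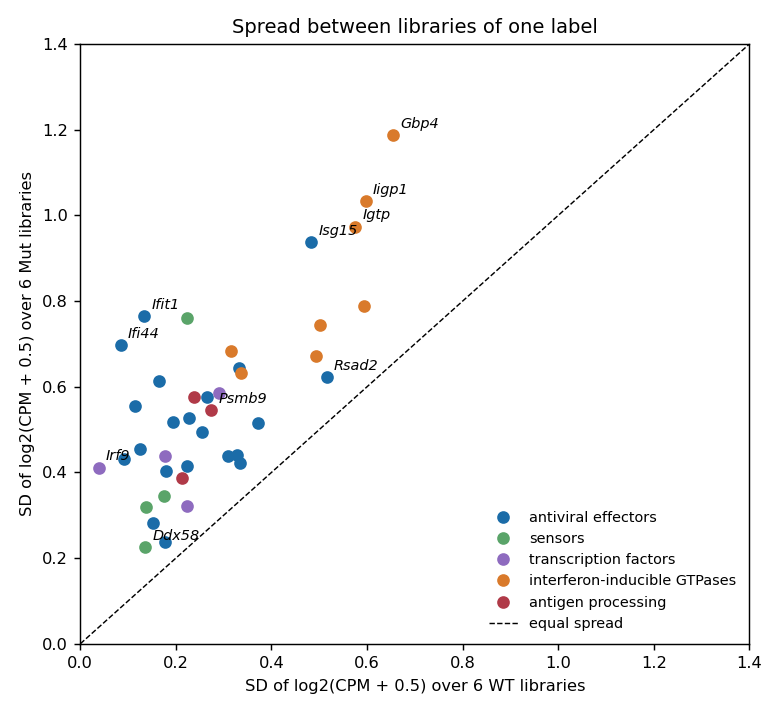
Standard deviation of log2(CPM + 0.5) over the 6 Mut libraries (vertical axis) against that over the 6 WT libraries (horizontal axis) for the 40 genes, coloured by group, with a dashed line of equal spread. All 40 points lie above the line, and the largest spread among Mut libraries is that of the GTPase Gbp4.

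The Mut libraries kept much the same order from gene to gene. Mut replicate 4 was the highest Mut library for 26 genes, Mut replicate 7 for 13 and Mut replicate 2 for 1. Over all tested genes, replicate 4 was the highest Mut library for 15.2% and replicate 7 for 22.6%. At the other end, Mut replicate 5 was the lowest for 28 members, replicate 3 for 7 and replicate 1 for 5. Over all tested genes, replicate 5 was the lowest Mut library for 18.5% and replicate 1 for 8.48%. The 40 genes together held 0.128% to 0.327% of the counts of a Mut library and 0.194% to 0.273% of those of a WT library.

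**Figure D4:**
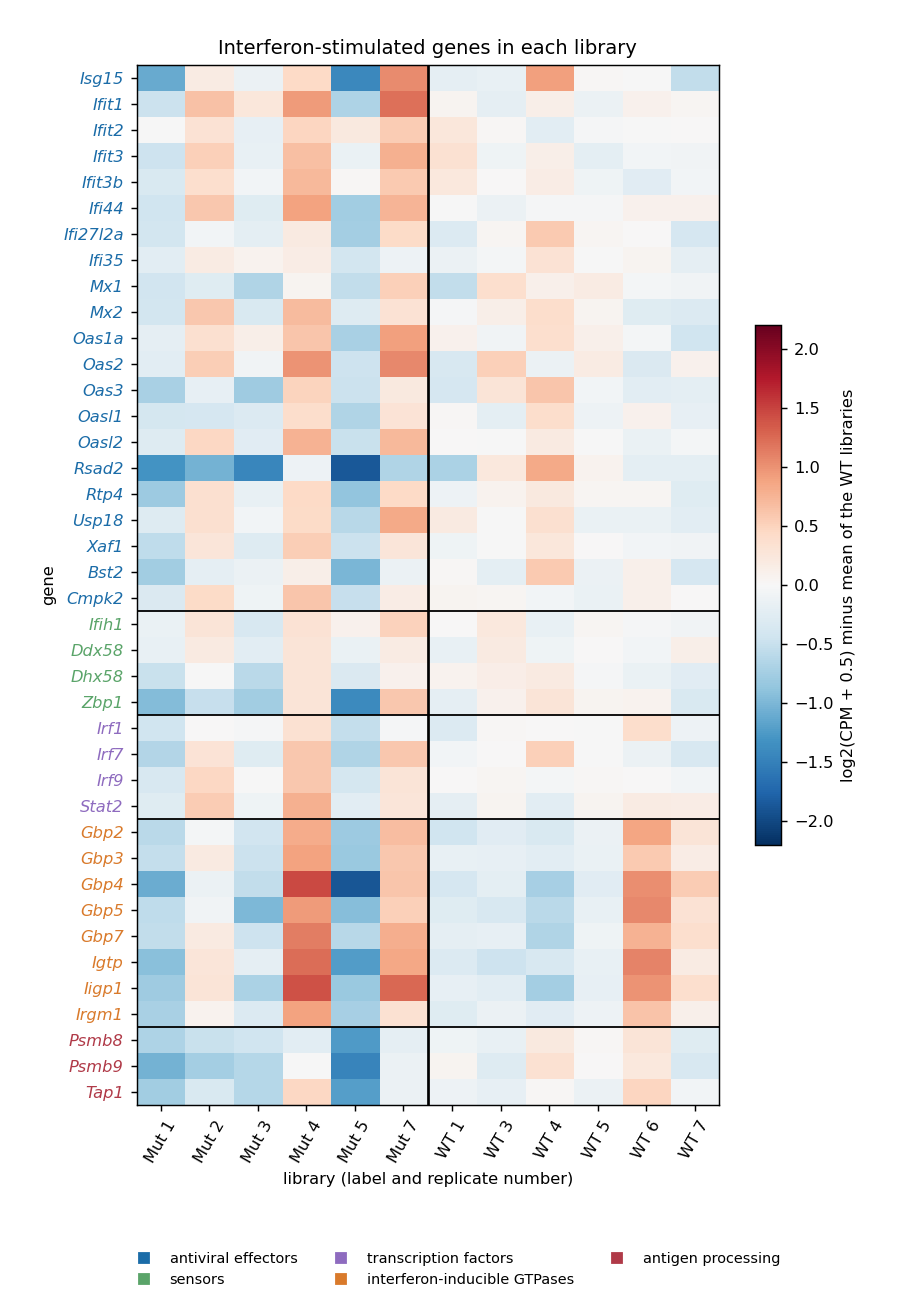
Log2(CPM + 0.5) of each of the 40 genes in each library, minus the mean of the 6 WT libraries, with the Mut libraries on the left and the genes grouped by role. The columns of Mut replicates 4 and 7 are high in most rows and those of Mut replicates 1 and 5 low, while most WT values stay nearer 0, less so in the rows of the GTPases.

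A mean over the genes of a group gave each library 1 value, and the order of the Mut libraries was the same for the effectors, the GTPases and the antigen processing genes. For the 21 effectors, the mean log2 level relative to the WT mean was -0.48, 0.19, -0.24, 0.50, -0.61 and 0.48 in Mut replicates 1, 2, 3, 4, 5 and 7. In WT it stayed within -0.16 to 0.29, with the top value in replicate 4. For the 8 GTPases it was -0.72, 0.10, -0.51, 1.09, -0.98 and 0.70 in those Mut libraries and -0.48 to 0.87 in WT. The WT libraries thus differed in which genes they had high. WT replicate 4 was the highest WT library for 14 of 21 effectors and the lowest for 5 of 8 GTPases, while WT replicate 6 was the highest for 8 of 8 GTPases. The antigen processing genes stood lower, at -0.83, -0.53, -0.56, 0.07, -1.31 and -0.15 in Mut and -0.22 to 0.32 in WT. The other groups had another order: for the sensors Mut replicate 7 was highest (0.34) and Mut replicate 3 lowest (-0.49), and for the transcription factors Mut replicate 2 (0.33) stood above Mut replicate 7 (0.28).

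**Figure D5:**
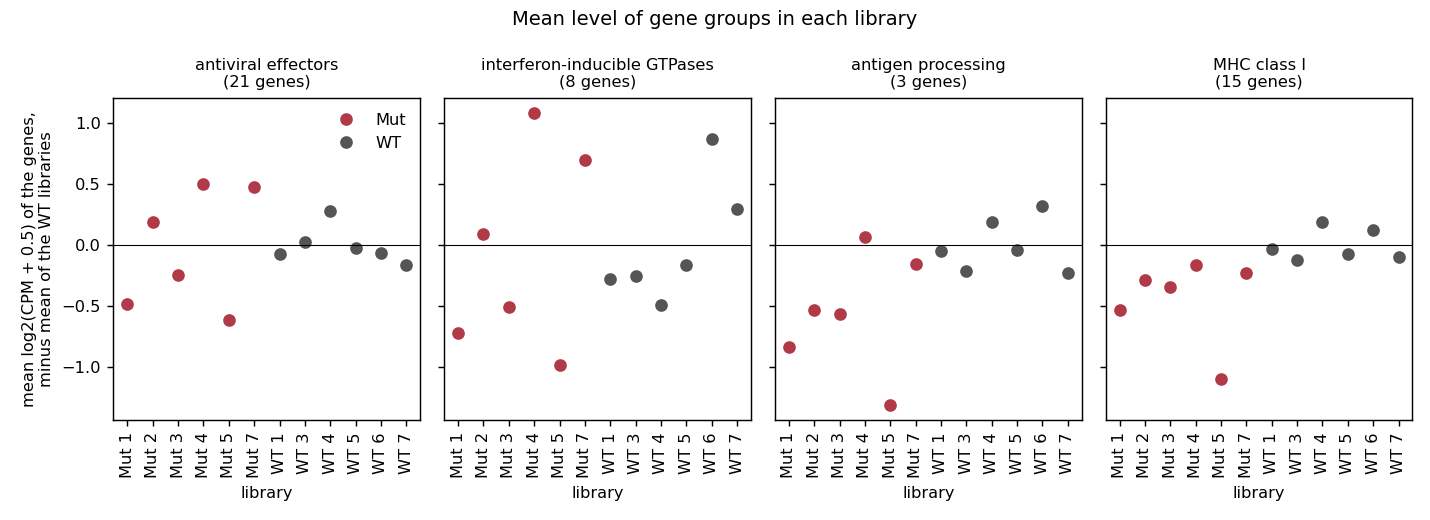
Mean log2(CPM + 0.5) of the genes of 4 groups in each library, minus the mean of the WT libraries, with Mut on the left. Mut replicate 4 is the highest Mut library and Mut replicate 5 the lowest in each panel, and all Mut points of the MHC class I panel lie below 0.

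The interferon genes themselves were close to the limit of detection. The 20 type I and III interferon genes listed summed to 6 to 20 reads in a Mut library and 5 to 20 reads in a WT library. No such gene had more than 5 reads in a library, and Ifna9 had none in any. Taken by itself, a single library with 0 reads allows up to 3 by counting error alone. Ifng, encoding interferon gamma, had 7, 4, 5, 3, 5 and 16 reads in Mut replicates 1, 2, 3, 4, 5 and 7 and 8 to 14 reads in each WT library. The most Ifng reads were in Mut replicate 7 and the fewest in Mut replicate 4, and both were high for the GTPases. These are few and unscaled reads, and Mut replicate 7 had the largest library total. A link between Ifng and the GTPases was not tested. None of the 21 interferon genes passed the low-count filter. Fitted without that filter, Ifng had a log2 fold change of -0.82 (edgeR unadjusted p = 0.0393, adjusted p = 0.297), with 40 reads over the Mut libraries and 67 over the WT libraries, and it was not called.

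Of 146 other genes of the pathway, listed by role, 122 were tested, and 1 was higher and 16 lower in Mut (edgeR adjusted p under 0.05). The share lower was 13.1%, against 5.31% of all tested genes. The lists were chosen with earlier results of these data known, so these shares are a description and were not tested. Of the 10 receptor and JAK-STAT genes, Ifngr1, the binding chain of the interferon gamma receptor, rose. It averaged 287 ± 21.2 CPM in Mut and 215 ± 24.5 CPM in WT (SD, n = 6 each; log2 fold change 0.41, SE 0.09, edgeR adjusted p = 0.00957), and all Mut libraries lay above all WT libraries. Ifngr2, the signalling chain, was not called, with a log2 fold change of -0.26 (edgeR adjusted p = 0.0990). Of 6 brakes, Ptpn6, the phosphatase SHP-1 of blood cells, fell to 42.1 ± 3.22 CPM in Mut, against 58.8 ± 8.28 CPM in WT (edgeR adjusted p = 0.00723).

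Of 14 genes that sense nucleic acid and induce interferon, 3 fell (21.4%) and 0 rose. Over all tested genes, 5.31% were called lower and 4.57% higher. Tmem173 encodes STING, the adaptor that responds to cytosolic DNA. It averaged 14.5 ± 1.93 CPM in Mut and 22.0 ± 2.87 CPM in WT (SD, n = 6 each), with all Mut libraries below all WT libraries (log2 fold change -0.60, SE 0.11, edgeR adjusted p = 0.00527). Irf5, a factor downstream of Toll-like receptors in myeloid and B cells, had a log2 fold change of -0.67 (edgeR adjusted p = 0.00967). Ikbke, a kinase that activates IRF3 and IRF7, had one of -0.30 (0.0480), and this call held in 1 of 12 fits that left out a library. Tmem173, Irf5, Ptpn6 and Ifngr1 were called in all 12.

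Among 58 tested targets of type I interferon outside the 40, 6 fell and 0 rose, with a median log2 fold change of -0.02. They were Epsti1 at -0.72, Ifi209 at -0.64, Slfn1 at -0.52, Uba7 at -0.34, Ube2l6 at -0.77 and Ms4a4c at -0.79 (edgeR adjusted p 0.00957 to 0.0441). Uba7 and Ube2l6 encode the enzymes that activate and transfer ISG15. Oas1g, the relative of Oas1a, had the most positive log2 fold change at 1.19, with 3.32 ± 2.23 CPM in Mut and 1.47 ± 0.664 CPM in WT (SD, n = 6 each; edgeR adjusted p = 0.0670). Ifi209 shares 23.1% of its 75-base sequences with its relative Ifi214. Epsti1 and Ifi209 were called in 12 of 12 fits that left out a library and the other 4 in 4 to 8. Of 19 tested further targets of interferon gamma, 0 passed in either direction or at an unadjusted p under 0.05. The smallest p was that of Cxcl9, a chemokine for activated T cells, with 1.31 ± 1.04 CPM in Mut and 2.73 ± 2.62 CPM in WT (SD, n = 6 each; log2 fold change -1.02, edgeR adjusted p = 0.286).

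The MHC class I list holds class I molecules and further parts of the machinery that supplies them with peptides. Of 15 listed genes, 6 fell (H2-Q4, H2-Q6, H2-Q7, H2-M3, Tap2 and Psme2), 0 rose and 14 had a negative log2 fold change, with a median of -0.40. Tap2, the partner of Tap1 in the peptide transporter, averaged 51.3 ± 8.31 CPM in Mut and 70.7 ± 10.9 CPM in WT (SD, n = 6 each; log2 fold change -0.46, edgeR adjusted p = 0.0234). Psme2, a subunit of the proteasome activator PA28, had a log2 fold change of -0.50 (edgeR adjusted p = 0.0424) and shares 22.9% of its 75-base sequences with Psme2b. Psmb10, the third inducible proteasome subunit beside Psmb8 and Psmb9, had one of -0.53 (0.0508). H2-Q4, H2-Q6 and H2-Q7, class I genes outside the classical set, were without overlap between Mut and WT, as was H2-K1, and each shares 16.95% to 21.1% of its 75-base sequences with other genes (H2-K1 3.10%), so that their own counts are uncertain. The count of 6 was 0 when Mut replicate 1 or either of WT replicates 4 and 6 was left out, and 1 when WT replicate 5 was. It was 2 when leaving out Mut replicate 2 or WT replicate 3, and 3 when leaving out Mut replicate 3 or WT replicate 1.

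Many marker genes of lymphocytes and monocytes were called lower in Mut. Over all tested genes, 5.31% were called lower and 4.57% higher. In bulk tissue, fewer cells of a type and less RNA per cell cannot be told apart. All 5 B cell markers fell, with summed levels of 121 to 202 CPM in Mut and 227 to 426 CPM in WT, and 7 of 8 T cell markers fell, at 67.4 to 116 CPM in Mut and 117 to 174 CPM in WT. Natural killer cell markers fell in 2 of 6 (28.0 to 70.0 CPM in Mut, 70.0 to 132 CPM in WT). Markers of classical monocytes fell in 3 of 5 (111 to 228 CPM in Mut, 168 to 259 CPM in WT), as did those of patrolling monocytes (697 to 1518 CPM in Mut, 916 to 1339 CPM in WT). Alveolar macrophage markers had 1 higher and 1 lower of 6 (388 to 730 CPM in Mut, 285 to 424 CPM in WT), and plasmacytoid dendritic cell markers likewise (412 to 495 CPM in Mut, 476 to 553 CPM in WT). Most of the plasmacytoid dendritic cell sum was Tcf4, the highest of its list (428 ± 33.9 CPM in Mut and 488 ± 23.3 CPM in WT, SD, n = 6 each). That sum therefore says little of the other markers of the list. No marker of neutrophils or endothelium was called, of 5 each, with 74.9 to 238 and 1778 to 3526 CPM in Mut and 86.3 to 177 and 2752 to 3018 CPM in WT. Such sums are set mainly by the most abundant markers, while a mean log2 level relative to the WT mean weighs each marker alike. For alveolar macrophage markers that mean was -0.14 in Mut (libraries -0.39 to 0.34, against -0.29 to 0.28 in WT). For patrolling monocyte markers it was -0.44 in Mut (-0.72 to -0.22, against -0.24 to 0.22 in WT). The higher sums of some Mut libraries thus do not hold for these lists as a whole. No listed marker was at 0. The part of these cells in the lower Psmb8, Rsad2 and MHC class I levels was not tested.

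The marker lists were set beside the order of the Mut libraries among the 40 genes. Mut replicate 4, the highest for the GTPases, had a mean T cell marker level of -0.89 on the log2 scale relative to the WT mean, and Mut replicate 1, among the lowest, had -0.27. For the natural killer cell markers Mut replicate 4 was the highest Mut library (-0.07) and Mut replicate 5 the lowest (-1.15), the same ends as for the 40 genes. Mut replicates 1, 2, 3 and 7 stood at -0.15, -0.66, -0.69 and -0.18. For the patrolling monocyte markers Mut replicates 4 (-0.22) and 7 (-0.26) were the highest Mut libraries and Mut replicate 2 (-0.72) the lowest. The part of these cells in the order of the Mut libraries was not tested. Mut replicate 7 stood apart in its endothelial markers, at -0.68, where the other Mut libraries had -0.03 to 0.26. It also had the lowest sample quality weight of all libraries in limma-voom (0.311), and WT replicate 4 had the next lowest (0.438).

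All 10 markers of lung tissue were expressed, from Foxj1 of ciliated cells (51.1 ± 14.5 CPM in Mut and 34.2 ± 6.70 CPM in WT) to Scgb1a1 of club cells (14569 ± 2779 CPM in Mut and 16200 ± 3078 CPM in WT, SD, n = 6 each), and 1 was called, higher in Mut. Library totals were 18870399 to 24014890 counts in Mut and 17118716 to 20119498 counts in WT. Iars1 itself averaged 55.0 ± 10.7 CPM in Mut and 44.9 ± 8.57 CPM in WT (SD, n = 6 each; log2 fold change 0.29, SE 0.14, edgeR adjusted p = 0.189), so its level does not set the libraries apart by label. Over all genes 869 were higher and 1010 lower in Mut, and 519 were higher and 1511 lower when libraries were scaled by their totals alone.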

How the data were processed

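Polyadenylated RNA was captured on oligo(dT) beads and turned into cDNA from random hexamers, with no strand-marking step named in the labels' protocols. The deposited count table holds whole read counts per gene, and the deposited FPKM table holds, as checked for 31832 genes within a tolerance of 0.001, those counts divided by library total and gene length. The build mm10 and limma are named per the submitters' processing notes. The aligner and the counting program are not given in the sources used here. Symbols and coordinates came from GENCODE M21 (GRCm38). The 4690 unannotated entries held 0.585% to 0.868% of counts and stayed in the fit.

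Counts were fitted in edgeR 4.0.16 (R 4.3.3; TMM, filterByExpr with a minimum count of 10, robust quasi-likelihood, 6 Mut against 6 WT, no covariate), with Benjamini-Hochberg adjustment over 19004 genes. TMM factors were 0.968 to 0.990 in Mut and 1.00 to 1.04 in WT. Standard errors are the log2 fold change divided by the square root of F. FPKM served to compare levels between genes. The fit was tested on simulated data, where it recovered 27 of 52 genes changed 1.5-fold and 56 of 61 changed 2-fold. Of its 175 calls there, 10 were false. The changed genes were drawn at random from all tested genes, and both labels were simulated with the same dispersion. For the 40 members the median standard deviation of log2(CPM + 0.5) was 0.54 in Mut and 0.23 in WT. The rates of recovery therefore need not hold for them. Alternatives were other scalings, filters and tests (DESeq2 1.42.0, limma 3.58.1), the FPKM values and each library left out. The members, pathway lists and marker lists were chosen with earlier results of these data known. Named were any member, each called pathway gene with up to 4 others of smallest p, and the markers with the highest and the lowest mean. Reads shared between genes were judged from 75-base stretches of GENCODE transcripts. Sequences and motif shares come from RefSeq windows with Python 3.11.15.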

Additional observations from a re-analysis of the deposited data

Results flagged for a closer look

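In 7 genes a WT library lay far above the other 5, by a gap test on 80 sets of 6 libraries (40 genes, 2 labels). Chance alone would mark about 1 in 20 independent sets, or 4 of 80. The sets here come from the same libraries and are not independent, so the 7 cannot be weighed against that number. WT replicate 4 had 27.9 CPM of Isg15 (next highest 14.97), 50.2 CPM of Ifi27l2a (34.8), 43.3 CPM of Irf7 (30.1) and 50.1 CPM of Xaf1 (42.5). WT replicate 6 had 118 CPM of Igtp (63.0), 109.5 CPM of Irgm1 (76.6) and 141 CPM of Tap1 (104). No Mut library was marked in this way.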

How the results depend on the processing

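No member was called higher under any alternative run. The count of members called lower, 2, was 1 with no low-count filter, 3 (with Psmb9) with library totals alone, in DESeq2 and on both FPKM scales, 3 at adjusted p under 0.1, 4 in limma-voom with sample quality weights and 0 to 4 with each library left out. Of 960 member fits, 934 kept direction and side of the threshold, 9 newly passed (3 genes) and 17 lost the call (2 genes), and none of the called values reversed. Pathway genes called higher, 1, were 2 in DESeq2, with quality weights or at adjusted p under 0.1, and 1 to 2 with each library left out. Pathway genes called lower, 16, were 31 with library totals alone, 27 in DESeq2, 30 with quality weights, 25 on log2(FPKM + 1), 26 on log2(FPKM + 0.1), 31 at adjusted p under 0.1 and 5 to 23 with each library left out. MHC class I genes called lower, 6, were 10 with library totals alone, in DESeq2, with quality weights and at adjusted p under 0.1, and 0 to 8 with each library left out. The settings for the larger spread in Mut were chosen after seeing the data, and gave 38 to 40 of 40. Replicate numbers 1, 3, 4, 5 and 7 occur under both labels, but same-numbered libraries did not deviate together (correlations -0.14 to 0.11), so the numbers are not taken as pairs. With the replicate block, 0 members, 0 pathway genes (0 higher, 0 lower) and 0 MHC class I genes were called, and over all genes 74 were higher and 33 lower. Over all genes DESeq2 called 1312 higher and 1503 lower, limma-voom with quality weights 2201 and 2151, and fits without 1 library from 401 and 556 (without WT replicate 5) to 1163 and 1205 (without Mut replicate 3). The causes of these shifts were not tested. Depth limits the interferon genes, and 6 libraries a label limit what the intervals of the most variable members, such as Gbp4, can show.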
